A study of Mus musculus with 12 samples.

Results

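The genes described here encode 3 families of splicing factors: the heterogeneous nuclear ribonucleoproteins (hnRNPs, Hnrnp genes), the serine- and arginine-rich proteins (SR proteins, Srsf genes), and the SF3A and SF3B subunits of the U2 particle. They were found by symbol in the deposited table and kept where 3 or more of the 12 libraries had a log2 value of 3 or higher. Of 41 genes with such a symbol, 39 were kept, among 10981 kept genes of all kinds. They are 20 hnRNP, 10 SR, 3 SF3A and 6 SF3B genes, spread over 17 chromosomes. The set was chosen by the measured values of Hnrnph1 in these libraries, because it moved in opposite directions with interferon gamma (IFNγ) in the 2 genotypes, so the values of Hnrnph1 are given as a description with no test, and tests are counted over the 38 other members.

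The libraries came from BV2, an immortalised mouse microglial line. The 4 groups of 3 libraries were Atg5 KO cells given 1 U/mL IFNγ for 24 h, Atg5 KO cells in medium, WT cells given the same dose for 24 h, and WT cells in medium. Atg5 is needed to form autophagosomes, and IFNγ is a cytokine that activates macrophages and microglia. All groups were grown in the same serum-containing medium, replicates (A, B and C) were made independently, and the sources used here do not say how many KO clones were used. RNA came from a cytosolic fraction, since gently lysed cells were spun to remove nuclei, and only the 3′ ends of poly-A RNA were read. These values are thus levels of mRNA in that fraction and not of splicing. The fraction still held RNAs that are mostly kept in the nucleus, as given below.

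In the nucleus, hnRNPs coat nascent pre-mRNA and often keep splice sites from being used, while SR proteins bind exons and recruit the splicing machinery to them. SF3A and SF3B are parts of the U2 small nuclear ribonucleoprotein, which recognises the branch point of each intron. Many hnRNP and SR genes limit their own mRNA through poison exons, alternative exons that bring a premature stop codon and send the transcript to nonsense-mediated decay. In macrophages, several hnRNPs are also known to bind inflammatory pre-mRNAs and mRNAs.

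Recovered reads ranged between 3329849 and 7330435 per library. Atg5 mRNA stood between 8.68 and 9.02 on the log2 scale in KO libraries and between 8.35 and 8.96 in WT libraries. A read from the 3′ end need not lie in the deleted part, whose position is not given in the sources used here, so this mRNA could not check the genotype label. The IFNγ response genes Irf1, Gbp2, Cxcl9 and Psmb9, used as a check, rose with IFNγ in both genotypes. WT IFNγ library C responded least, with Gbp2 at 10.18 against 12.52 and 12.70 in A and B. KO IFNγ library C was likewise the lowest of its group for Irf1, Gbp2 and Psmb9. In it Gbp2 stood at 11.93 against 13.05 and 12.72 in A and B, and Irf1 at 9.86 against 11.22 and 11.02. Of 11 microglial markers 11 passed the filter on low values. Of the markers of other cell types, 3 of 3 for B cells, 4 of 5 for fibroblasts, 3 of 4 for neurons, 2 of 3 for astrocytes, 2 of 4 for T cells and 1 of 3 for oligodendrocytes had no read, and 1, an oligodendrocyte marker, passed it.

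Every value below is log2 of the normalised count plus 1 unless it is called a change, and a change is a difference between group means on that scale with its standard error (SE). Levels are not compared between genes. Within the hnRNPs the means over 12 libraries lay between 7.25 for Hnrnph3 and 13.17 for Hnrnpab. Within the SR genes they lay between 2.37 for Srsf1 and 12.53 for Srsf2, within SF3A between 7.40 for Sf3a2 and 9.42 for Sf3a3, and within SF3B between 8.95 for Sf3b3 and 12.13 for Sf3b2. These means show how deeply each gene was read.

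Srsf1, the prototype SR protein that binds exonic enhancers, was just inside the rule. It reached 3 in exactly 3 libraries, at 4.09 in KO medium B, 3.90 in KO IFNγ C and 3.53 in WT IFNγ B. Its recovered reads were 2, 4 and 18 in KO IFNγ, 2, 21 and 1 in KO medium, 0, 10 and 4 in WT IFNγ, and 6, 6 and 4 in WT medium. At this depth a change of Srsf1 could not be detected, since the SE of each of its changes was 0.97. Just outside the rule were Srsf12 and Hnrnpa1l2-ps, a processed pseudogene, which had no read in any library.

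**Figure D1:**
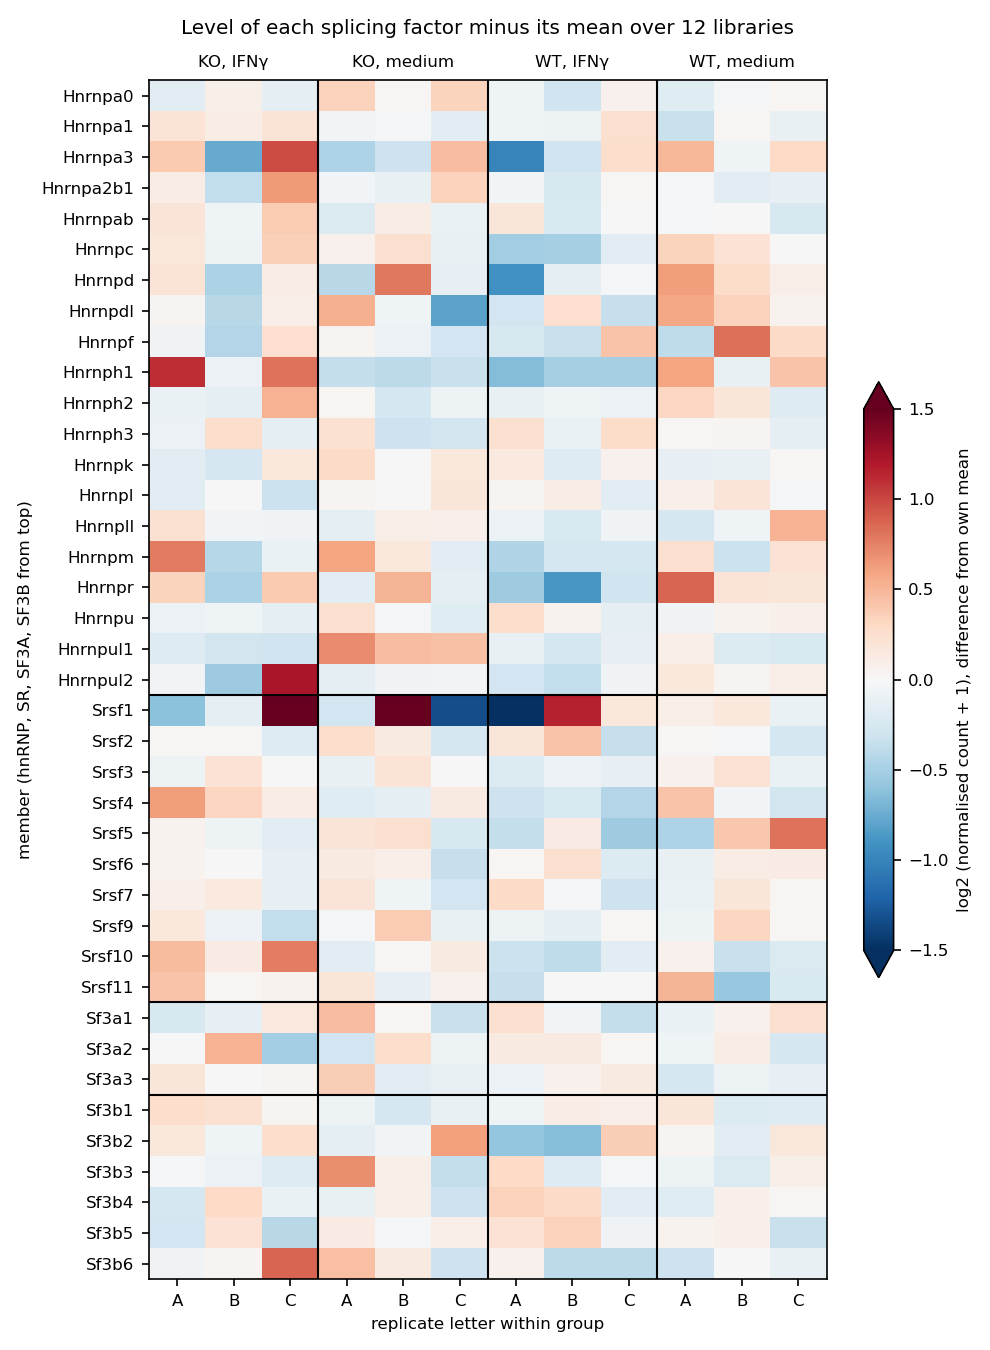
Log2 value of each of the 39 splicing factor genes in each of the 12 libraries, as the difference from the gene's own mean over the 12 libraries. The colour scale ends at 1.5 above and below the mean. Most rows stay close to their mean, Hnrnph1 is highest in libraries A and C of KO IFNγ and of WT medium, and Srsf1, with 0 to 21 reads, varies most.

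The 12 values spanned under 1 log2 unit in 20 of 39 members and in 29.2% of all kept genes. They spanned 1 to 2 units in 18 members and more in 1, Srsf1, with 4.09. The median span was 0.89 among members and 1.30 among all kept genes. Among genes with a mean of 9 to 12, where counting error is small, the median span was 0.95 for 26 members and 0.94 for 1956 kept genes. At matched levels the splicing factors thus spanned about as much as other genes.

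The steadiest member was Srsf3, an SR protein that also helps mRNA leave the nucleus, with a span of 0.42. It had 11.52, 11.82 and 11.60 in KO IFNγ, against 11.48, 11.80 and 11.58 in KO medium. It had 11.39, 11.51 and 11.47 in WT IFNγ, against 11.66, 11.82 and 11.50 in WT medium. Hnrnpu followed with a span of 0.44, Hnrnpl with 0.51, Sf3b1 with 0.52 and Hnrnpk, which binds cytosine-rich RNA, with 0.53. The span of Hnrnpul2 rested on 1 library, since it stood at 10.80 in KO IFNγ C and between 9.04 and 9.74 in the other libraries. Hnrnpm, known in macrophages for holding back the splicing of Il6, had 12.27, 11.05 and 11.39 in KO IFNγ, against 12.07, 11.64 and 11.32 in KO medium. Library A was the highest in both KO groups, and the groups overlapped. The members of this paragraph were chosen after their values were seen, except Hnrnpu and Hnrnpl.

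Hnrnph1 encodes hnRNP H, which binds runs of guanines in pre-mRNA and steers alternative exons. The gene (ENSMUSG00000007850) lies on the plus strand at chr11:50376990-50386528 in GRCm38. Its values were 11.45, 10.26 and 11.15 in KO IFNγ libraries A, B and C, against 9.98, 9.95 and 10.01 in KO medium. The IFNγ libraries were all higher, with B closest to the medium libraries. In WT cells the values were 9.70, 9.85 and 9.84 with IFNγ, against 10.93, 10.23 and 10.77 in medium. Here the IFNγ libraries were all lower, and B was again the nearest of the higher group.

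The change of Hnrnph1 with IFNγ was 0.98 (SE 0.24) in KO cells and -0.85 (SE 0.24) in WT cells, or 1.97-fold and 0.555-fold. The change in KO minus the change in WT was 1.82 (SE 0.34). KO minus WT came to 1.16 with IFNγ and to -0.66 in medium. These 4 contrasts use the same 12 libraries and are not separate evidence, and because they chose the gene no test is given. In bulk RNA, a different share of cells carrying an mRNA and a different amount per cell cannot be told apart.

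Since the groups do not overlap, leaving out a library cannot turn these directions, and the sizes are given as a description. Over the alternatives, which include leaving out each library in turn, the change with IFNγ lay between 0.73 and 1.32 in KO cells and between -1.05 and -0.70 in WT cells. The lowest KO value came without KO IFNγ A and the highest without KO IFNγ B. Without both IFNγ libraries C, the changes were 0.88 in KO and -0.87 in WT cells.

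RNAs that are mostly kept in the nucleus were read in all 12 libraries, with Malat1 at 10.97 to 12.63 and Xist at 8.16 to 9.26. Some of them also moved between the groups. Malat1, a long noncoding RNA of nuclear speckles, rose by 1.28 and Neat1, the scaffold RNA of paraspeckles, by 1.20 with IFNγ in KO cells (adjusted p 0.0021 and 0.039). In WT cells the changes were 0.40 for Malat1 and 1.03 for Neat1 (adjusted p 0.39 and 0.085), the difference in response passed the test for neither (adjusted p 0.63 and 0.97), and Xist was at -0.21 in KO and -0.09 in WT cells. Kcnq1ot1, an antisense RNA of an imprinted locus, fell by 1.002 with IFNγ in WT cells and was 1.35 higher in KO than in WT cells with IFNγ (adjusted p 0.032 and 0.031). The summed normalised counts of the 8 listed nuclear RNAs, of which 4 passed the filter and Meg3 and Rian had no read, were 5571 to 7066 in KO IFNγ, 2640 to 3934 in KO medium, 3458 to 6370 in WT IFNγ and 3744 to 4133 in WT medium. Malat1 made up most of the sum in every library, and the sums of KO IFNγ overlapped those of WT IFNγ. The highest sum was in the KO IFNγ group, where Hnrnph1 was also highest. In WT IFNγ the sums reached 6370, while Hnrnph1 was lowest there, at 9.70 to 9.85. WT medium had sums of 3744 to 4133, with Hnrnph1 at 10.23 to 10.93. The part of these RNAs in the result was not tested.

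The H/F subfamily has 3 further members, which share the guanine-run binding domains of hnRNP H. The coding sequence of Hnrnph2 was identical to that of Hnrnph1 at 85.9% of aligned bases, Hnrnpf at 77.3% and Hnrnph3 at 72.3%. None of the 4 shared a 50-base stretch of the last 500 bases of its chosen coding transcript with another gene. These libraries were read from 3′ ends, but where the reads of each gene lay was not checked. Hnrnph2 had 8.09, 8.05 and 8.71 in KO IFNγ, against 8.22, 7.92 and 8.11 in KO medium. It had 8.07, 8.12 and 8.09 in WT IFNγ, against 8.49, 8.37 and 7.99 in WT medium. The groups overlapped in both genotypes, and the changes with IFNγ were 0.20 (SE 0.21) in KO and -0.19 (SE 0.21) in WT cells.

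Hnrnpf had 9.80, 9.41 and 10.10 in KO IFNγ, against 9.89, 9.77 and 9.56 in KO medium. In WT cells it had 9.61, 9.52 and 10.28 with IFNγ, against 9.47, 10.68 and 10.14 in medium, and the groups overlapped in both genotypes. Its changes were 0.03 in KO and -0.30 in WT cells (SE 0.27). Hnrnph3 changed by 0.13 in KO and 0.16 in WT cells (SE 0.23) and its groups overlapped too. None of these 3 genes passed the test in any of the 5 comparisons.

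**Figure D2:**
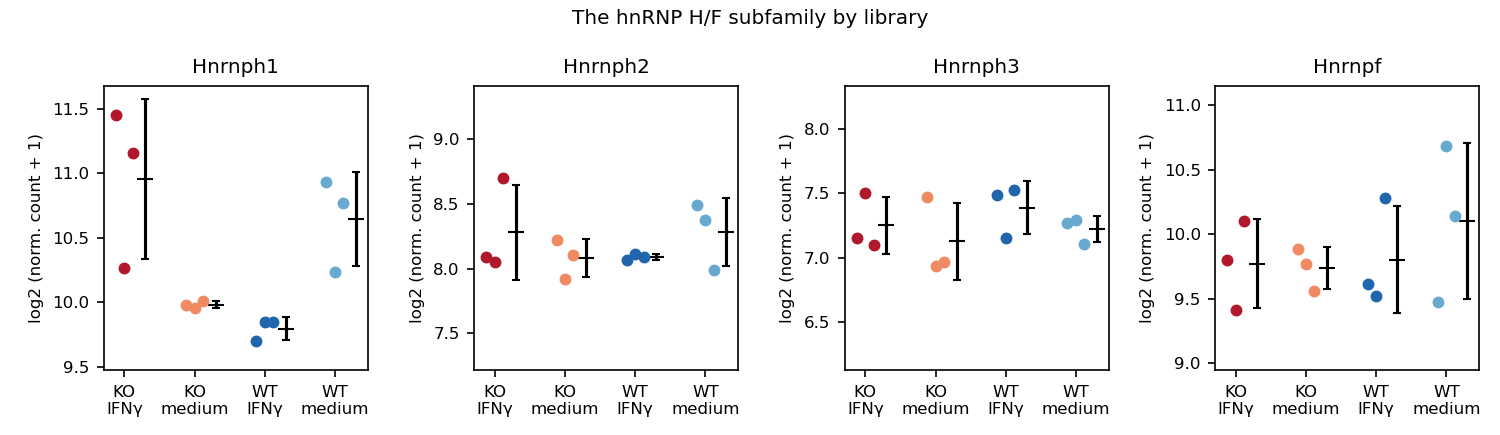
Log2 normalised count of Hnrnph1 and of the other H/F genes Hnrnph2, Hnrnph3 and Hnrnpf in each library (points) by group, with the group mean. The Hnrnph1 groups are apart in all 4 pairs, with KO IFNγ at 10.26 to 11.45 against KO medium at 9.95 to 10.01, and the groups of the other 3 genes overlap.

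The comparison of IFNγ with medium asks how the cytokine changed the mRNAs of splicing factors in each genotype. Among the other members, 1 hnRNP gene fell in KO cells and a different one fell in WT cells. A call is an adjusted p under 0.05 by limma, with the adjustment over all 10981 kept genes. In KO cells this was 1 of 38, lower, where 7.36% of all kept genes were called, 4.67% higher and 2.69% lower. In WT cells it was also 1 of 38, lower, where 6.65% were called, 4.53% higher and 2.12% lower. These contrasts chose Hnrnph1, and nothing is read from these counts.

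The gene that fell in KO cells was Hnrnpul1, an hnRNP U relative that also acts in the response to DNA double-strand breaks. It lies on the minus strand at chr7:25721165-25754757. Its values were 11.23, 11.14 and 11.12 in KO IFNγ, against 12.13, 11.89 and 11.86 in KO medium. The KO medium libraries stood above all other libraries, and the groups did not overlap. In WT cells it had 11.31, 11.16 and 11.30 with IFNγ, against 11.52, 11.22 and 11.20 in medium, with overlapping groups. The change with IFNγ was -0.79 (SE 0.16, adjusted p 0.0039) in KO cells, or 0.577-fold, and -0.06 (SE 0.16) in WT cells. The call in KO cells held in all 20 alternatives, with a highest adjusted p of 0.029 without KO medium A.

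The gene that fell in WT cells was Hnrnpr, an RNA-binding hnRNP known in motor neurons for carrying Actb mRNA along axons. It lies on the plus strand at chr4:136310942-136359447. Its values were 9.66, 9.32 and 9.90 in WT IFNγ, against 11.07, 10.40 and 10.38 in WT medium. The WT IFNγ libraries were all lower. In KO cells it had 10.53, 9.72 and 10.59 with IFNγ, against 10.04, 10.70 and 10.05 in medium, with overlapping groups. The change with IFNγ was -0.99 (SE 0.26, adjusted p 0.022) in WT cells, or 0.505-fold, and 0.02 (SE 0.26) in KO cells. The call in WT cells held in 17 of 20 alternatives. It was lost without WT medium A (adjusted p 0.136), WT IFNγ A (0.062) or WT IFNγ B (0.134). An exon of Hnrnpr overlaps one of Gm27022 on the opposite strand over 715 bases, and the sources used here do not state whether reads were counted by strand.

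**Figure D3:**
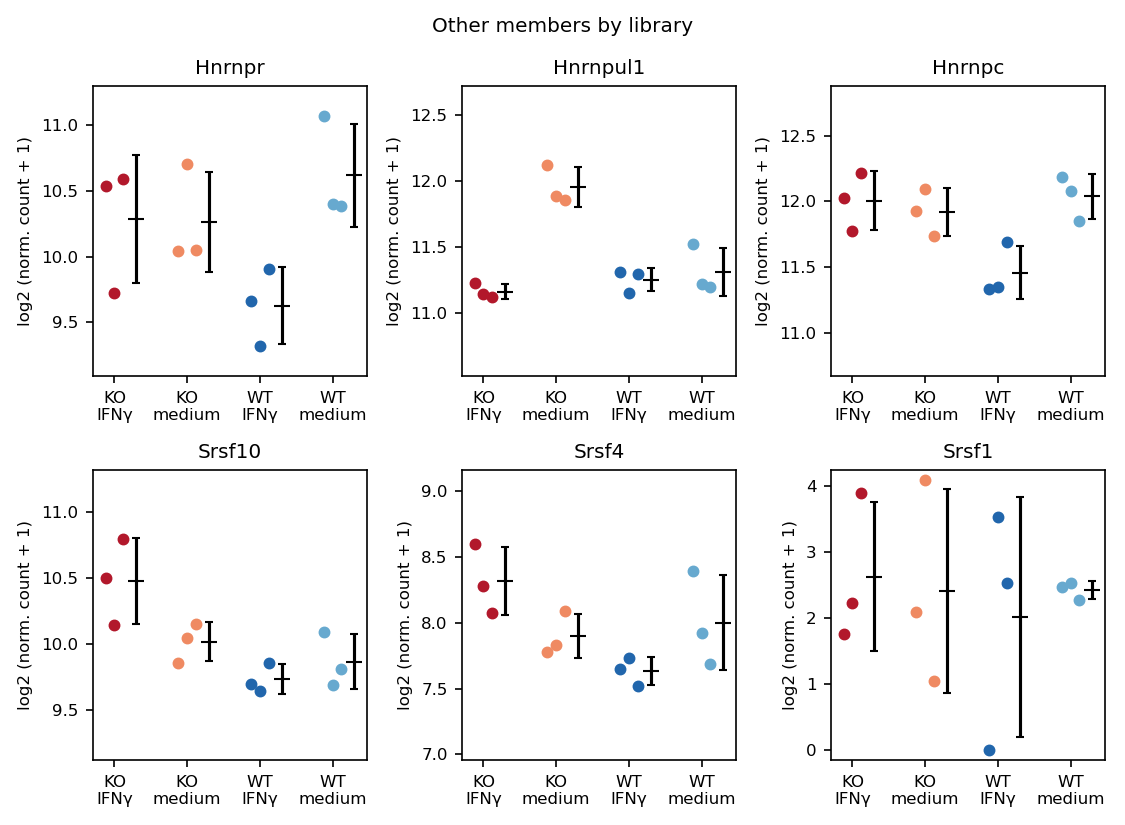
Log2 normalised count of Hnrnpr, Hnrnpul1, Hnrnpc, Srsf10, Srsf4 and Srsf1 in each library (points) by group, with the group mean. Hnrnpul1 is lower in KO IFNγ (11.12 to 11.23) than in KO medium (11.86 to 12.13), Hnrnpr is lower in WT IFNγ (9.32 to 9.90) than in WT medium (10.38 to 11.07), and Srsf1 scatters near the detection limit.

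The promoters of the gene that chose the set and of the 2 genes called with IFNγ are shown because many promoters that respond to IFNγ carry the gamma-activated site (GAS) motif. They are 300-base RefSeq windows of GRCm38.p6, with 250 bases before and 50 after an annotated start, printed 5′ to 3′ on the gene's strand. Capitals mark GAS (TTCNNNGAA) and CCAAT matches and, within the GAS match of Hnrnpr, an overlapping ETS core (CCGGAA), each searched on both strands. The windows are chr11:50376740-50377039 on the plus strand, chr4:136310692-136310991 on the plus strand and chr7:25754710-25755009 on the minus strand, in the order of the lines.
Hnrnph1: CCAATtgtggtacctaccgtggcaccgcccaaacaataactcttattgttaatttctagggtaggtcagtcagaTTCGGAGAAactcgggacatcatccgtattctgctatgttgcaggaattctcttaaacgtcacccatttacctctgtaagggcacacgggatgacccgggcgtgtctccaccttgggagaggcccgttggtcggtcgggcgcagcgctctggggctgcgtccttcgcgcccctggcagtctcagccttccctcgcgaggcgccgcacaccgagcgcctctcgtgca
Hnrnpr: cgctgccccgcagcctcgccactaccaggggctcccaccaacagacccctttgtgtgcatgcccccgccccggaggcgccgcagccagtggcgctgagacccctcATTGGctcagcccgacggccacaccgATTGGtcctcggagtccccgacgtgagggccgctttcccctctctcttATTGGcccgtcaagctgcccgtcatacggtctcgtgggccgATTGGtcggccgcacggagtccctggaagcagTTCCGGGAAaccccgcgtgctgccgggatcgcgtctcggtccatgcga
Hnrnpul1: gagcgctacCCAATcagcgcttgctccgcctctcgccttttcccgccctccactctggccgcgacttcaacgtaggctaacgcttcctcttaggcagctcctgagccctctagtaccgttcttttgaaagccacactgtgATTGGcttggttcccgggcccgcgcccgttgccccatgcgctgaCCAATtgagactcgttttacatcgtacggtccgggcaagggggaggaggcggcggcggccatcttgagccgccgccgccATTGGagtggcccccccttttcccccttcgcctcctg
Hnrnph1 and Hnrnpr each had 1 GAS match and Hnrnpul1 had 0, while CCAAT occurred 1 time in Hnrnph1 and 4 times each in Hnrnpr and Hnrnpul1. A match is only a stretch of these letters, and no factor's binding was measured.

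RefSeq windows were found for 35 of the 39 members, 48 windows in all, against 32851 windows of all genes. GAS was in 10.4% of member windows and 8.30% of all windows, and the 4 members with it were Hnrnpa2b1, Hnrnph1, Hnrnpr and Sf3b6. The interferon-stimulated response element, searched as GAAA, any 2 bases and GAAA, was in 0 of the member windows and in 3.44% of all windows. CCAAT was in 50% of member windows and 37.4% of all windows, the ETS core in 50% and 14.9%, TATAAA in 10.4% and 13.6%, and the NRF1 motif (GCGCAT followed by GCGC) in 2.08% and 0.971%. The median GC content was 64.2% in member windows and 52.7% in all windows, with a median of 27.5 and 7 CpG dinucleotides. Member windows were thus richer in CpG and held the ETS letters more often than all windows. The latter were not limited to kept genes, and a gene can have several windows. The part of base composition or of passing the filter in this was not tested.

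Across the 19 other hnRNP genes, the change with IFNγ ran between -0.79 and 0.30 in KO cells, with a median of 0.03. In WT cells it ran between -0.99 and 0.17, with a median of -0.19. After Hnrnpr, the hnRNP genes with the largest decreases in WT cells were Hnrnpd, which binds AU-rich elements and promotes mRNA decay, Hnrnpa3 and Hnrnpc. None of these 3 passed the test.

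Hnrnpc, a core hnRNP that binds uridine tracts of introns, was singled out after its values were seen. It had 11.33, 11.35 and 11.69 in WT IFNγ, against 12.19, 12.08 and 11.85 in WT medium. It had 12.03, 11.77 and 12.22 in KO IFNγ, against 11.92, 12.10 and 11.74 in KO medium. The WT IFNγ libraries were below all other libraries, and the change was -0.58 (SE 0.18, adjusted p 0.065) in WT and 0.09 in KO cells. It passed the test in WT cells under voom (adjusted p 0.047), without WT IFNγ C (0.030) and without both IFNγ libraries C (0.029).

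Hnrnpd had 9.42, 10.18 and 10.31 in WT IFNγ, against 10.95, 10.60 and 10.43 in WT medium. These groups did not overlap, and the change of -0.69 (SE 0.28) had an adjusted p of 0.17. Hnrnpa3, a relative of the A1 and A2 proteins, changed by -0.59 in WT and by 0.30 in KO cells, each with an SE of 0.36. Of the 50-base stretches at its 3′ end 84.3% also occur in the genes Gm5641 or Gm6793, so its reads may have been shared with them and its values are uncertain. Hnrnpa0, which binds AU-rich inflammatory mRNAs in macrophages, changed by -0.30 in KO and by -0.04 in WT cells, with an SE of 0.18, and did not pass the test.

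Across the 10 SR genes, the change with IFNγ ran between -0.18 and 0.46 in KO cells. In WT cells it ran between -0.51 and 0.18. The highest value in WT cells was that of Srsf2, at 0.18 (SE 0.21), an SR protein that stays in nuclear speckles. With all libraries none of the 10 passed the test in either genotype. The highest changes in KO cells were those of Srsf10 (0.46, SE 0.19) and Srsf4 (0.41, SE 0.22), and the lowest change in WT cells was that of Srsf5 (-0.51, SE 0.25), an SR protein named here after its values were seen. Srsf5 lay between -0.86 without WT medium A, where it passed the test (adjusted p 0.034), and -0.23 without WT medium C.

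The 3 SF3A genes changed by -0.13 to 0.05 with IFNγ in KO cells and by -0.12 to 0.19 in WT cells. The 6 SF3B genes changed by -0.25 to 0.33 in KO cells and by -0.30 to 0.24 in WT cells. None of these 9 genes passed the test in either genotype. The highest values in WT cells were 0.24 for Sf3b5, 0.19 for Sf3a3 and 0.18 for Sf3b4, with SEs of 0.20, 0.18 and 0.20. In KO cells Sf3b3, a large scaffold subunit, was at -0.25 (SE 0.23), with 8.92, 8.86 and 8.75 in KO IFNγ, against 9.64, 9.04 and 8.59 in KO medium. Its KO groups overlapped, and KO medium A was the highest of all libraries.

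**Figure D4:**
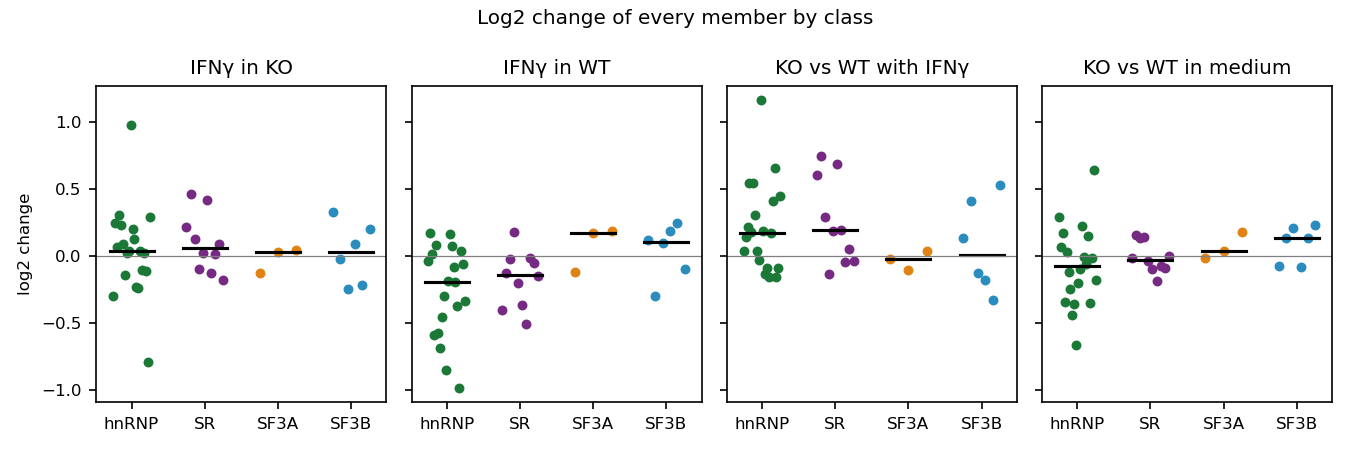
Log2 change of every member by class in 4 comparisons, with 1 point per gene and a bar at the class median, Hnrnph1 included. With Hnrnph1 included the 20 hnRNP genes spread most, with Hnrnph1 at 0.98 and Hnrnpul1 at -0.79 for IFNγ in KO cells. Without Hnrnph1, KO minus WT with IFNγ ran between -0.16 and 0.65 in hnRNP genes and between -0.14 and 0.75 in the 10 SR genes. The 3 SF3A genes stay between -0.13 and 0.19 in all 4 panels, but a range over fewer genes tends to be narrower.

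Some groups did not overlap. With IFNγ in KO cells, the groups of 3 of 38 members were apart, where those of 24.4% of kept genes were. They were Sf3b1, the subunit that grips the branch point helix, and Hnrnpa1, an exon repressor, both higher and both chosen after their values were seen, and Hnrnpul1, lower. With IFNγ in WT cells, 4 of 38 were apart, all lower, where 24.1% of kept genes were apart and 11.3% were lower. They were Hnrnpc, Hnrnpd, Hnrnpr and Hnrnpul2.

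Over the 38 other members, the median change with IFNγ was 0.03 in KO cells and -0.09 in WT cells, against 0.01 and -0.02 over all kept genes. Of 38, 24 were above 0 in KO cells and 13 in WT cells, where 50.9% and 48.4% of kept genes were. Single libraries set the KO values: without KO IFNγ C 14 of 38 were above 0 with a median of -0.06, without KO medium C 15 with -0.03, and without KO IFNγ A 18 with -0.004. The WT median was -0.03 without WT medium B. The 95% interval of the change lay within 1 log2 unit of 0 for 35 members in KO cells and for 32 in WT cells. A 2-fold change in either direction was thus outside the interval for most members.

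**Figure D5:**
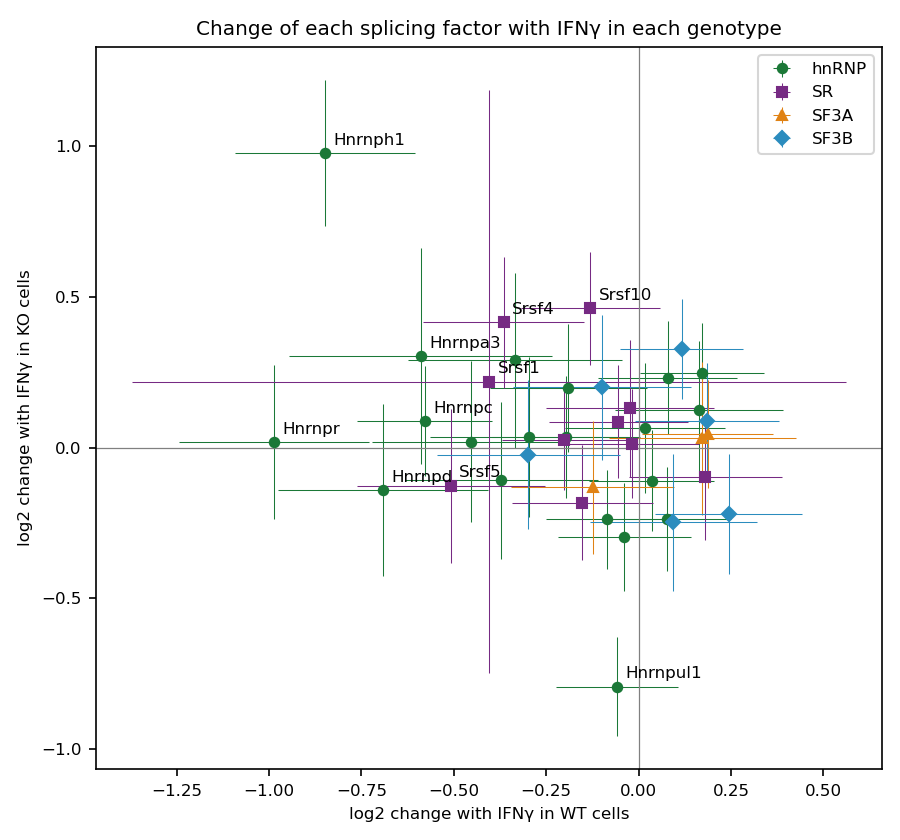
Change with IFNγ in WT cells (horizontal axis, log2) against change with IFNγ in KO cells (vertical axis, log2) for the 39 members, with bars of 1 SE. Hnrnph1 lies at -0.85 and 0.98, Hnrnpr at -0.99 and 0.02, Hnrnpul1 at -0.06 and -0.79, and most other genes lie near the origin.

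The comparison of genotypes asks whether loss of Atg5 changed these mRNAs. With IFNγ, 0 of 38 other members passed the test by limma and 0 by voom, where 0.492% of kept genes were called, 0.209% higher and 0.282% lower. An unadjusted p under 0.05 was found for 5 of 38 members and for 12.0% of kept genes. Those 5 were all higher in KO cells: Srsf10, Srsf4, Hnrnpc, Hnrnpr and Sf3b6. The groups were apart in 6 members, all higher in KO cells, where 16.1% of kept genes were apart and 7.08% were higher. They were Srsf10, Srsf4 and, named after their values were seen, Srsf11, Srsf3, Hnrnpc and Hnrnpll. The median change was 0.14 over the 38 members and -0.004 over all kept genes. It was 0.07 without KO IFNγ C, 0.08 without KO IFNγ A and 0.09 without WT IFNγ A, and the members with an unadjusted p under 0.05 came to 10 without KO IFNγ B and to 3 without KO IFNγ C or WT IFNγ B. The comparison of genotypes with IFNγ uses the same 6 libraries as that of Hnrnph1.

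Srsf10, an SR protein that represses splicing when it loses its phosphates, lies on the plus strand at chr4:135855747-135869908. It had 10.50, 10.14 and 10.79 in KO IFNγ, against 9.70, 9.64 and 9.86 in WT IFNγ. In medium it had 9.86, 10.04 and 10.15 in KO cells, against 10.09, 9.69 and 9.81 in WT cells. The groups were apart with IFNγ and overlapped in medium. KO minus WT was 0.75 (SE 0.19, adjusted p 0.087), or 1.68-fold, with IFNγ and 0.15 (SE 0.19) in medium. It passed the test in 1 of 20 alternatives, without KO IFNγ B, with a change of 0.91 and an adjusted p of 0.044. The difference between the changes, 0.59 (SE 0.27), had an adjusted p of 0.67.

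Srsf4, an SR protein of nuclear speckles, lies on the plus strand at chr4:131873617-131901706. It had 8.59, 8.28 and 8.08 in KO IFNγ, against 7.65, 7.73 and 7.52 in WT IFNγ. In medium it had 7.78, 7.83 and 8.09 in KO cells, against 8.39, 7.92 and 7.69 in WT cells. The KO libraries were all higher with IFNγ and overlapped the WT libraries in medium. KO minus WT was 0.68 (SE 0.22, adjusted p 0.18) with IFNγ and -0.10 (SE 0.22) in medium. An exon of Srsf4 overlaps one of Gm12992 on the opposite strand over 1532 bases.

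Sf3b6, the small subunit that touches the branch point adenosine, had 9.56, 9.65 and 10.49 in KO IFNγ, against 9.67, 9.21 and 9.22 in WT IFNγ. Library C was the highest in KO cells and the groups overlapped, with a change of 0.53 (SE 0.24, adjusted p 0.39). The lowest changes were those of Sf3b5 at -0.33 (SE 0.20), Sf3b4 at -0.18 (SE 0.20) and Hnrnpu, a nuclear scaffold protein, at -0.16 (SE 0.17). None of these passed the test.

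In medium, 0 of 38 other members passed the test for KO against WT by limma and 0 by voom, where 0.428% of kept genes were called, 0.118% higher and 0.31% lower. An unadjusted p under 0.05 was found for 1 of 38 (4 without WT medium A, 2 without KO medium A or B) and for 8.26% of kept genes. That member was Hnrnpul1, at 0.64 (SE 0.16, adjusted p 0.13), or 1.56-fold. Its KO libraries (11.86 to 12.13) were above its WT libraries (11.20 to 11.52). Hnrnpul2, named after its values were seen, was lower in KO cells without overlap, with 9.44, 9.53 and 9.54 in KO medium, against 9.74, 9.63 and 9.67 in WT medium. Groups were thus apart in 2 of 38 members, where 13.6% of kept genes were apart, 6.21% higher and 7.37% lower. The other extremes were Hnrnpa0 at 0.29 and Sf3b6 at 0.23 on the higher side, and Hnrnpdl at -0.44 and Hnrnpf at -0.36 on the lower side, with SEs of 0.18, 0.24, 0.27 and 0.27. Single libraries moved these widely: Hnrnpdl was at -0.76 without KO medium A and -0.09 without KO medium C, Hnrnpf at -0.67 without WT medium A and -0.07 without WT medium B, and Sf3b6 at 0.44 without KO medium C and 0.054 without KO medium A. The interval lay within 1 log2 unit of 0 for 36 members in medium and for 31 with IFNγ.

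The difference in response is the change with IFNγ in KO cells minus that in WT cells. By limma, 0 of 38 other members and 0 of all 10981 kept genes (0%) passed the test, and voom also called 0 members. An unadjusted p under 0.05 was found for 5 of 38 members (8 without KO IFNγ B, 3 without KO IFNγ A or C) and for 7.21% of kept genes. The largest differences among the other members were 1.00 (SE 0.36) for Hnrnpr, 0.89 (SE 0.50) for Hnrnpa3 and 0.78 (SE 0.31) for Srsf4, and the lowest were -0.73 (SE 0.23) for Hnrnpul1, -0.46 (SE 0.28) for Sf3b5 and -0.34 (SE 0.32) for Sf3b3. Their adjusted p ran between 0.54 for Hnrnpul1 and 0.86 for Sf3b3. The calls of Hnrnpul1 in KO cells and of Hnrnpr in WT cells therefore do not show that their responses differ between the genotypes. The interval lay within 1 log2 unit of 0 for 20 of 38 members, so for the other 18 a difference of 2-fold was inside it.

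Over the 12 libraries, the values most like those of Hnrnph1 were Srsf10 (Pearson r 0.73), Srsf4 (0.72) and Hnrnpa3 (0.67), and the least like were Sf3b5 (-0.75), Hnrnpl, which binds CA repeats (-0.53), and Sf3b4 (-0.48). An r above 0.5 was found for 8 of 38 members, a larger share than the 8.10% of kept genes. The median r was 0.15 among members and -0.01 among all kept genes. The 12 points share 4 groups, which were the reason Hnrnph1 was chosen, and the r values are a description only.

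Transcripts of the kinds that poison exons and unspliced introns give are annotated for many members. In GENCODE M21, 20 of the 39 members (51.3%) have a transcript annotated for nonsense-mediated decay, against 30.8% of 10013 other kept protein-coding genes. A retained-intron transcript is annotated for 29 members (74.4%), against 62.3% of the others. The median number of transcripts was 7 for members and 5 for the others. Hnrnph1 has 18 annotated transcripts, 3 of them coding and 15 of them processed transcripts. Reads from the 3′ end do not tell these forms apart, so a change of an mRNA here does not say which form changed. Exons of 18 of the 39 members overlap an exon of another gene, on the opposite strand for 15 and on the same strand for 4, and none of these is Hnrnph1, Hnrnpul1, Hnrnpc or Srsf10. Of the 39 members 35 shared no 50-base stretch of their 3′ end with another gene, and after Hnrnpa3 the next highest share was 11.8% for Sf3b4. Values of members that overlap or share sequence with another gene are less certain to the extent that reads were counted for both.

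Further splicing genes were counted from lists of the same pathway. With IFNγ, 7.36% of all kept genes were called in KO cells and 6.65% in WT cells, and nothing is read from the list counts. The 15 tested genes of the U1 and Sm core list and the 10 genes of U2AF and branch point recognition held 0 calls in the 5 comparisons. In a list of 23 genes, mostly of the tri-snRNP and Prp19 complexes with some other Prp factors, Prpf3, a U4/U6 protein, rose by 1.18 (SE 0.24, adjusted p 0.0027) and Prpf39, a Prp factor that works with the U1 particle and was not in the U1 list, by 0.95 (SE 0.28, adjusted p 0.044) with IFNγ in KO cells. Of 18 SR-related genes and SR kinases, Srrm2, a scaffold of nuclear speckles, rose by 0.63 (SE 0.19, adjusted p 0.046) with IFNγ in KO cells.

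Of 31 tested other splicing regulators, Rbfox2, which binds GCAUG, fell by 0.80 (SE 0.23, adjusted p 0.034) with IFNγ in KO cells, and Mbnl2, a muscleblind protein, rose by 0.71 (SE 0.17, adjusted p 0.012) with IFNγ in WT cells. Of 15 genes of nonsense-mediated decay and the exon junction complex, Magohb, a core subunit of that complex, rose by 0.92 (SE 0.23, adjusted p 0.016) with IFNγ in KO cells. These calls stand beside 7.36% of all kept genes called with IFNγ in KO cells and 6.65% in WT cells. No gene of these lists passed the limma test between genotypes or for the difference in response. The list medians with IFNγ ran between -0.08 and 0.14 in KO cells and between -0.22 and 0.05 in WT cells, against 0.01 and -0.02 over all kept genes.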

How the data were processed

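The deposited table holds log2 values for 46078 genes in 12 libraries of BV2 cells. The submitters' processing notes name FastQC 0.11.2, STAR with no version, HTSeq 0.6.1, DESeq2 1.10.1 and the GRCm38 build, and the annotation release and strand setting are not given in the sources used here. Per a check of the values, each deposited log2 value is that of a read count over the library's size factor, with a pseudocount of 1 added, since 100% of the values gave whole reads to within 0.01. Depth was 3329849 to 7330435 recovered reads per library.

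The filter asked for a value of 3 or higher in 3 or more libraries. A limma 3.58.1 model (R 4.3.3) with a mean for each group was fitted to all 10981 kept genes, which leaves 8 residual degrees of freedom, and its variances were moderated along their trend with the mean. Tests were two-sided, with Benjamini-Hochberg adjustment over all kept genes, and a call is an adjusted p under 0.05. Every p is from this model except where voom is named, and intervals have a confidence level of 95%. Changes are on the log2(normalised count + 1) scale, which understates changes of low genes. The scripts were tested on simulated data.

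Alternatives were voom on the recovered reads, scaling by trimmed means, no filter, a minimum of 5, a pseudocount of 8, a replicate block, only the groups compared, and leaving out each library or both IFNγ libraries of letter C.

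The members, the lists and the tests were chosen with earlier results of these data known. Named members were Hnrnph1 and its subfamily, every called member, the 3 highest and 3 lowest changes of each comparison, the highest and lowest mean of each class, and the 3 members most and least correlated with Hnrnph1. Genes were placed with GENCODE M21, which held all 41 identifiers, and promoter windows came from RefSeq. 1 gene of the IFNγ check list is not reported here.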

Additional observations from a re-analysis of the deposited data

Results flagged for a closer look

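The opposite moves of Hnrnph1 with IFNγ in the genotypes were picked out, since every KO IFNγ library (10.26 to 11.45) was above every KO medium library (9.95 to 10.01) and every WT IFNγ library (9.70 to 9.85) was below every WT medium library (10.23 to 10.93). The change in KO cells minus the change in WT cells was 1.82 on the log2 scale. No test of this difference is given here, because it is the reason the gene set was chosen. Groups of 3 libraries are too small for the check on single libraries that stand apart, so none was made.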

How the results depend on the processing

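For the 38 members other than Hnrnph1, calls for IFNγ in WT cells were 1 in the fit described and 2 under voom and without both IFNγ libraries C, with 0 to 2 when each library was left out in turn. The calls between genotypes with IFNγ were 0 and ranged from 0 to 1 when each library was left out. The counts of members called in the other 3 comparisons kept their size under all alternatives run. With the replicate letters as a replicate block the members called were 1 for IFNγ in WT, 1 for IFNγ in KO and 0 in each of the other 3 comparisons. No pairing of the letters is stated, and same-letter deviations correlated at -0.06 to 0.22. The highest, 0.22, was that of letter C between the genotypes with IFNγ, where the highest r with another letter was -0.08. What the IFNγ libraries C may share was not tested. Over the 38 members and all alternatives, 5 calls were gained (3 for Hnrnpc and 1 for Srsf5 in WT cells with IFNγ, 1 for Srsf10 between genotypes with IFNγ) and 3 were lost, all of Hnrnpr. Without WT medium A the 1 call for IFNγ in WT cells was Srsf5, not Hnrnpr. Of 190 changes (38 members, 5 comparisons), 87 turned sign when some library was left out, and 0 of these were called. Among the members named by the rule for that comparison, the one that turned was the change of Sf3b3 with IFNγ in KO cells, -0.25 with all libraries and 0.028 without KO medium A, and it ranged from -0.50 to 0.028 when each library was left out. Genes with few reads, such as Srsf1, are limited by their read counts, and why Srsf1 had so few was not tested.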
